A study of Mus musculus with 12 samples.

Results

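Small proline-rich proteins are short structural proteins of squamous epithelia, encoded by a cluster of Sprr genes on mouse chromosome 3. The 8 genes described here are Sprr1a, Sprr1b, Sprr2d, Sprr2e, Sprr2f, Sprr2h, Sprr2i and Sprr3, taken by symbol from the 25210 genes of the deposited count table. They were followed in mammary epithelial organoids, which are fragments of mammary epithelium grown in a gel, from virgin female FVB/N mice of 8 to 11 weeks. The organoids were grown in growth-factor reduced Matrigel and minimal medium for 7 days with the solvent dimethyl sulfoxide (DMSO) or with CHIR99021 at 1, 1.5 or 3 µM. The compound blocks GSK3, a kinase that marks β-catenin for destruction, and so activates WNT signalling. The labels name no transgene or mutant allele, so the 4 groups share their strain and differ in the treatment alone. There were 3 cultures, 1 per animal, and each was split over the 4 treatments, for 12 libraries in all. The replicate number is the culture.

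Small proline-rich proteins are cross-linked by transglutaminases into the cornified envelope, the protein shell that replaces the plasma membrane of a terminally differentiated keratinocyte. Their proline-rich repeats join loricrin, involucrin and other envelope proteins, and the family is regarded as a set of interchangeable cross-bridges whose make-up differs between epithelia. In a glandular epithelium such as that of the mammary gland, their expression is read as a marker of squamous differentiation.

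The 8 genes lie within 146.8 kb of GRCm38 chromosome 3. The Sprr2 genes are on the plus strand, Sprr2d at chr3:92339140-92340873, Sprr2e at chr3:92352143-92353449, Sprr2f at chr3:92365187-92366442, Sprr2h at chr3:92385685-92387324 and Sprr2i at chr3:92407991-92409271. The other members are on the minus strand, Sprr1b at chr3:92436809-92438779, Sprr3 at chr3:92456502-92458720 and Sprr1a at chr3:92483952-92485895. None of the 8 overlaps another gene of the GENCODE M21 annotation.

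The proximal promoters differ between the Sprr2 members and the others, so positions −200 to −91 from the RefSeq start of each gene are shown, on GRCm38.p6. For Sprr1a this start lies within the gene coordinates given above and not at their end. Letters run 5′ to 3′ on the strand of the gene, and capitals mark an AP-1 motif (TGANTCA, in either orientation) or an octamer motif (ATTTGCAT or its reverse complement), the sites named for AP-1 and POU-domain proteins. The plus-strand stretches are chr3:92338940-92339049 for Sprr2d, chr3:92351943-92352052 for Sprr2e, chr3:92364987-92365096 for Sprr2f, chr3:92385485-92385594 for Sprr2h and chr3:92407791-92407900 for Sprr2i. Those on the minus strand are chr3:92485972-92486081 for Sprr1a, chr3:92438870-92438979 for Sprr1b and chr3:92458811-92458920 for Sprr3.
Sprr2d: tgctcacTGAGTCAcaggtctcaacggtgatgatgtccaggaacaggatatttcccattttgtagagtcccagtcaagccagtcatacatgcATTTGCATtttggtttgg
Sprr2e: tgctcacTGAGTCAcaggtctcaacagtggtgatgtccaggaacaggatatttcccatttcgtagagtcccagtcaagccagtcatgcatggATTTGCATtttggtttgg
Sprr2f: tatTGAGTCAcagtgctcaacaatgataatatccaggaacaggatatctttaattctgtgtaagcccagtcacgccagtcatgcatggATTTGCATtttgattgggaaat
Sprr2h: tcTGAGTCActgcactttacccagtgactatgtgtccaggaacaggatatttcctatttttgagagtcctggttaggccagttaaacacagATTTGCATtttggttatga
Sprr2i: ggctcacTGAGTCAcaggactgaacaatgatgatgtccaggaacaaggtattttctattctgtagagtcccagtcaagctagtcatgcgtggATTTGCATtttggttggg
Sprr1a: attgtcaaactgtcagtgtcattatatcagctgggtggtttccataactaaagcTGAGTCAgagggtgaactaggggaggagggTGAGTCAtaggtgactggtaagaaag
Sprr1b: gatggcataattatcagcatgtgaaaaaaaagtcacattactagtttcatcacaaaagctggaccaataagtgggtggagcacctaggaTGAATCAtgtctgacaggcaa
Sprr3: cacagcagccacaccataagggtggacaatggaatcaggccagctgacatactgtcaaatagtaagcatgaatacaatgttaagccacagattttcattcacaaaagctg

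Over the 250 bases before the start, an AP-1 motif was found in 7 of the 8 members, all but Sprr3, and in 6.75% of 32851 RefSeq promoters of the same length. The octamer was found in all 5 Sprr2 members, in none of Sprr1a, Sprr1b and Sprr3, and in 1.60% of all promoters. Both motifs stood together in the 5 Sprr2 members and in 0.167% of all promoters. Of 6 further Sprr promoters in the table, Sprr2b and Sprr2k hold both, while Sprr2a1, Sprr2a2, Sprr2a3 and Sprr4 hold neither. The distance from the AP-1 motif to the octamer was 85 bases in Sprr2d, Sprr2e, Sprr2f and Sprr2i and 89 bases in Sprr2h. A TATAAA box was found in all 8 and in 7.59% of promoters. The TCF/LEF letters CTTTGAT, searched on both strands, were found in 0 of the 8 windows and in 3.21% of promoters, which says only that these letters are not in these windows. The CAGGAA letters of ETS-type sites, on both strands, were found in 6 members and in 25.7% of promoters, and the GGGTGG letters of Krüppel-like sites in 3 and 28.1%. Promoter identity was 60.1% to 89.3% in the 10 pairs of Sprr2 members (median 72.5%) and 47.7% to 57.8% in the other 18 pairs (median 51.3%). The Sprr2 promoters are in part copies of one another, so the motifs they share are not independent matches.

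Library totals ran from 10.1 to 24.5 M counts (M, mega). Levels are given as counts per M counts (CPM) after scaling for library composition, so 3 counts correspond to 0.115 to 0.305 CPM depending on the library. Tests are edgeR's quasi-likelihood tests over 15316 genes with Benjamini-Hochberg adjustment, a gene is called at an adjusted p under 0.05, and fold changes are in log2 with their standard error (SE). Of the 8 members 7 passed the filter on low counts, and Sprr3 did not. The shares of all genes set beside dose comparisons are from edgeR without a culture term. Counts of dose comparisons with the culture as a block or with DESeq2 have no such share beside them and are not set against these. Epithelial markers summed to 3269 to 5640 CPM in DMSO and 16283 to 33005 CPM at 3 µM, where 2 of 6 were called higher and 2 lower. Luminal markers summed to 2824 to 4796 CPM in DMSO and 1817 to 1883 CPM at 3 µM, with 6 of 9 called lower. Markers of 4 cell types outside the epithelium were present too, and the median of each summed level was lower at the top dose, with overlapping ranges for fibroblast markers. Fibroblast markers summed to 1624 to 20508 CPM in DMSO and 175.3 to 4569 CPM at 3 µM. Of these 7 genes 0 were called lower by edgeR at 3 µM, 0 had an unadjusted p under 0.05, 2 were called by DESeq2 and 6 with the culture as a block. Macrophage markers went from 245.6 to 2438 CPM in DMSO to 37.9 to 114.3 CPM, with 3 of 4 tested called lower. Endothelial and adipocyte markers were called lower in 4 of 4 and 3 of 3 genes. The share of all genes called lower at 3 µM is not given here. In either direction 9569 of the 15316 genes had an unadjusted p under 0.05 there by edgeR. No marker of the 4 was at 0 in every library of a group. The part of these shifts in the Sprr results was not tested. In bulk RNA, a change in the number of cells that express a gene and a change in RNA per cell cannot be told apart. As a check of the treatment, 4 of 8 WNT feedback genes were called higher at 3 µM than in DMSO, beside 29.9% of all genes. Lgr5 was the 1 called lower. Axin2 was higher by 4.92 ± 0.648 (SE, log2, edgeR adjusted p = 0.000147). At 1 µM 0 of the 8 were called by edgeR, where 0.189% of all genes were called higher. Of the 8, 2 had an unadjusted p under 0.05, 1 was called higher by DESeq2, and 1 higher and 1 lower with the block.

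All 8 genes had their highest level at 3 µM in each of the 3 cultures, and none fell at any step in any culture. The members differed in the lowest dose at which they were counted. A later start cannot be told apart from a lower level of the gene. At 3 µM the mean was 974.7 CPM for Sprr1a, 24.6 CPM for Sprr2f and 2.16 CPM for Sprr3. Sprr1a was counted in every DMSO library, Sprr1b and Sprr2h in a part of them, and Sprr2d, Sprr2e, Sprr2f, Sprr2i and Sprr3 in none. The plot of each gene by dose and culture shows this order.

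**Figure D1:**
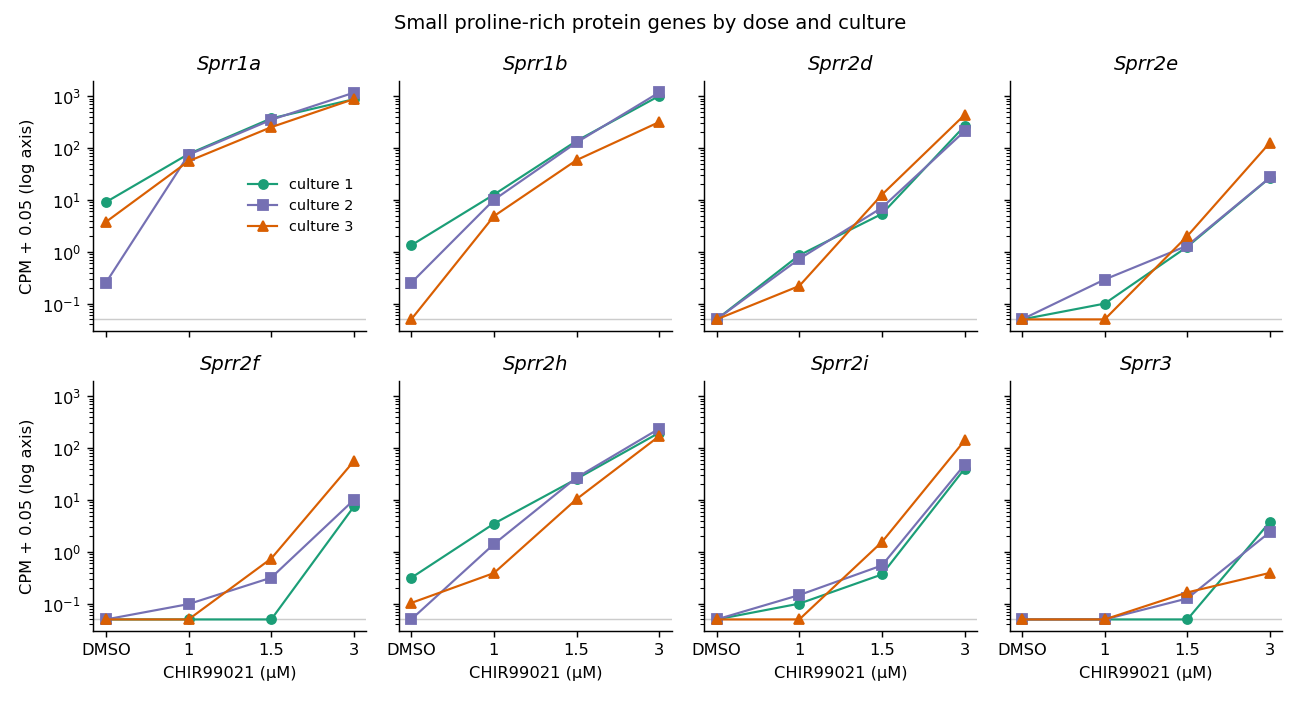
Level of each gene (CPM + 0.05, log axis) against the CHIR99021 dose (evenly spaced, with DMSO at the left), 1 line per culture. A point on the grey line is a library with no count. Sprr1a starts highest, and Sprr2f and Sprr3 are still on the grey line at 1.5 µM in culture 1.

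Sprr1a encodes a cross-bridging protein that is also induced in stressed and injured epithelia. It had 203, 2 and 69 counts in DMSO in cultures 1, 2 and 3, or 9.02, 0.203 and 3.72 CPM. At 1 µM it stood at 76.9, 74.4 and 55.8 CPM, at 1.5 µM at 372.7, 350.3 and 252.8 CPM, and at 3 µM at 874.3, 1169 and 880.6 CPM. Every library of a dose lay above every library of the dose before it. The mean rose from 4.31 ± 4.44 CPM in DMSO to 69.0 ± 11.5, 325.3 ± 63.7 and 974.7 ± 168.5 CPM with rising dose (SD, n = 3). At 1 µM Sprr1a was 16.0-fold DMSO by the means, or 3.92 ± 0.688 in log2 (SE), and missed the threshold with an edgeR adjusted p of 0.0613. With the culture as a block the adjusted p was 0.0113, and with DESeq2 1.74e-06. It passed without DMSO replicate 1 (adjusted p = 0.0250) and without DMSO replicate 2 (adjusted p = 0.0256). At 1.5 µM it was 75.4-fold DMSO (edgeR adjusted p = 0.000606) and at 3 µM 226.0-fold (edgeR adjusted p = 3.56e-05).

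Sprr1b is the close relative of Sprr1a. It had 29, 2 and 0 counts in DMSO. At 1 µM it stood at 12.6, 9.99 and 4.83 CPM, at 1.5 µM at 137.4, 128.2 and 58.6 CPM, and at 3 µM at 1015, 1183 and 318.0 CPM. Culture 3 was the lowest at all 4 treatments, and the groups did not overlap. The mean rose from 0.497 ± 0.693 CPM in DMSO to 838.6 ± 458.6 CPM at 3 µM (SD, n = 3), which is 1687-fold (edgeR log2 fold change 10.50 ± 1.03, adjusted p = 2.45e-05). Against DMSO the gene was called at 1.5 µM (217.4-fold, edgeR adjusted p = 0.000642) and not at 1 µM (18.4-fold, edgeR adjusted p = 0.116, and 0.00713 with the culture as a block).

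The Sprr2 genes are the largest subfamily of the cluster. Of the Sprr2 members, Sprr2h alone was counted in DMSO. It had 6, 0 and 1 counts in DMSO, and 68, 28 and 6 at 1 µM. It stood at 25.5, 27.0 and 10.4 CPM at 1.5 µM and at 198.2, 237.8 and 170.5 CPM at 3 µM. At 3 µM its mean was 202.1 ± 33.8 CPM (SD, n = 3), with the narrowest relative spread among the Sprr2 members. The log2 fold change against DMSO was 7.21 ± 0.889 at 1.5 µM (edgeR adjusted p = 0.000613) and 10.48 ± 0.914 at 3 µM (edgeR adjusted p = 1.29e-05). At 1 µM it was 3.62 ± 1.010 and was not called (edgeR adjusted p = 0.183, and 0.0538 with the culture as a block), while DESeq2 gave an adjusted p of 0.00190.

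Sprr2d had no count in DMSO. It had 16, 14 and 3 counts at 1 µM and 84, 184 and 218 at 1.5 µM. At 3 µM it had 3403, 3311 and 6345, which made it the Sprr2 member with the highest level there (305.7 ± 117.6 CPM, SD, n = 3). Against DMSO it was at least 27.4-fold higher at 1.5 µM (edgeR adjusted p = 0.000728) and at least 1004-fold higher at 3 µM (edgeR adjusted p = 8.09e-06). These bounds set DMSO at 3 counts in its smallest library, 0.305 CPM. At 1 µM Sprr2d was not called against DMSO (edgeR adjusted p = 0.202, and 0.0860 with the culture as a block), while DESeq2 gave an adjusted p of 0.00162.

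Sprr2e and Sprr2i were also without a count in DMSO. Sprr2e had 1, 5 and 0 counts at 1 µM, 19, 33 and 34 at 1.5 µM, and 343, 423 and 1853 at 3 µM. Sprr2i had 1, 2 and 0 counts at 1 µM, 5, 13 and 26 at 1.5 µM, and 512, 748 and 2032 at 3 µM. In both, culture 3 was the lowest at 1 µM and the highest at 1.5 and 3 µM. Against DMSO, Sprr2e was at least 4.87-fold higher at 1.5 µM (edgeR adjusted p = 0.0144) and at least 199.0-fold higher at 3 µM (edgeR adjusted p = 0.000140). Sprr2i was at least 2.54-fold higher at 1.5 µM (edgeR adjusted p = 0.0242) and at least 249.9-fold higher at 3 µM (edgeR adjusted p = 6.64e-05). The call of Sprr2i at 1.5 µM was lost without any 1 of the DMSO libraries (adjusted p = 0.0597, 0.0527 and 0.0609 without replicates 1, 2 and 3) or without replicate 3 at 1.5 µM (adjusted p = 0.0551).

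Sprr2f had the fewest counts of the tested members at 1 and 1.5 µM. It had no count in DMSO, 0, 1 and 0 at 1 µM, 0, 7 and 12 at 1.5 µM, and 95, 156 and 815 at 3 µM. At 3 µM it was at least 80.6-fold above DMSO (edgeR adjusted p = 0.000891). At 1.5 µM it was not called against DMSO (edgeR adjusted p = 0.130, and 0.0169 with the culture as a block), and culture 1 still had no count.

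Sprr3, a marker of internal squamous epithelia such as that of the oesophagus, stayed near the limit of counting. It had no count in the 6 libraries in DMSO and at 1 µM, 0, 2 and 2 counts at 1.5 µM, and 48, 37 and 5 counts at 3 µM. The 3 µM libraries stood at 3.76, 2.37 and 0.345 CPM, all above every other library, with culture 3 lowest. Their mean was 2.16 ± 1.72 CPM (SD, n = 3), at least 7.09-fold above DMSO. Without the filter on low counts, 3 µM against DMSO had an edgeR adjusted p of 0.00388, and DESeq2 gave 7.17e-05.

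Against DMSO, 0 of the 7 tested members were called higher at 1 µM, 6 at 1.5 µM and 7 at 3 µM. Over all 15316 genes the share called higher was 0.189%, 15.4% and 29.9%. The count of 0 at 1 µM is from edgeR's test, in which 4 members had an unadjusted p under 0.05, and the block gave 2 (Sprr1a and Sprr1b) and DESeq2 4 of 7. The share of all genes called with the block or with DESeq2 is not given here. Without culture 2 in any group, the count at 1.5 µM was 2. At 1 µM 4 of the 8 members had all treated libraries above all DMSO libraries, beside 11.2% of all genes. At 1.5 µM this held for 6, beside 24.9%, and at 3 µM for all 8, beside 30.9%. The median log2 fold change of the 7 tested members was 4.78 at 1.5 µM and 7.97 at 3 µM with the 4 genes that had no count in DMSO set at their bound, against 0.00 and −0.03 over all genes.

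The share of the 3 µM level that was reached at 1.5 µM differed between members, and was at most 42.6% for each gene below in each culture. At 1.5 µM, Sprr1a had reached 42.6%, 29.96% and 28.7% of its own 3 µM level in cultures 1, 2 and 3, and Sprr1b 13.5%, 10.8% and 18.4%. Sprr2h had reached 12.8%, 11.4% and 6.08%. The other Sprr2 members were lower, with means of 3.57% for Sprr2e, 2.74% for Sprr2d, 1.31% for Sprr2f and 0.969% for Sprr2i. In each culture Sprr1a, Sprr1b and Sprr2h stood above these 4 genes. Sprr3 had at most 2 counts at 1.5 µM and is left out. The difference between the genes was not tested, since 3 cultures allow an exact two-sided paired p of no less than 0.25.

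**Figure D2:**
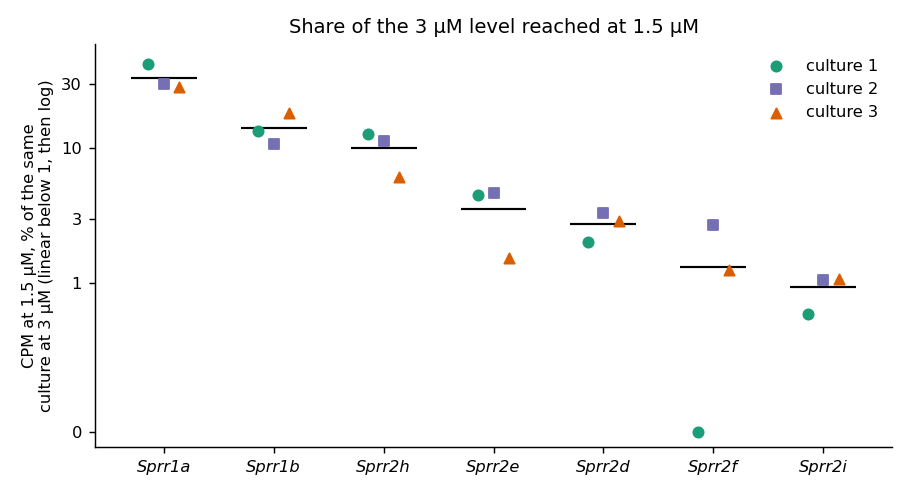
CPM at 1.5 µM as a percent of the level at 3 µM in the same culture (axis linear below 1 and logarithmic above), by gene, with 1 point per culture and the mean as a black line. Sprr1a averaged 33.8% and Sprr2i 0.969%.

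From 1 to 1.5 µM, 3 of the 7 tested members were called higher (4.43% of all genes), namely Sprr1b, Sprr2d and Sprr2h. The ratio of the 2 doses was 4.53 to 4.84 in the 3 cultures for Sprr1a, 10.9 to 12.8 for Sprr1b and 7.37 to 30.4 for Sprr2h. Sprr1a had a log2 fold change of 2.24 ± 0.623 and was not called (edgeR adjusted p = 0.0678, and 0.0138 with the block). With the block and with DESeq2, 6 of the members tested passed this step. The call of Sprr1b was lost in 5 of the 12 fits that leave out 1 library, that of Sprr2h in 3 and that of Sprr2d in 1. The adjusted p then lay between 0.0513 and 0.107. Leaving out replicate 2 at 1 µM brought the count to 0. It was 1 when replicate 1 or replicate 2 at 1.5 µM was left out, and 5 when the 3 µM library of culture 3 was.

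From 1.5 to 3 µM, 6 of the 7 were called higher (17% of all genes), all but Sprr1a. All 8 members had every 3 µM library above every 1.5 µM library, beside 23.1% of all genes. For Sprr2d, Sprr2e, Sprr2f and Sprr2i the ratio of the doses lay between 21.4 and 126.1 in the 11 pairs of libraries where the lower dose had over 3 counts. The ratio was 2.35 to 3.48 for Sprr1a, 5.42 to 9.23 for Sprr1b and 7.78 to 16.4 for Sprr2h. The ranges of Sprr1a, Sprr1b and Sprr2h lay below that of the other Sprr2 genes. In log2 the step was 6.62 ± 0.769 for Sprr2i (edgeR adjusted p = 0.000880), 5.19 ± 0.484 for Sprr2d (edgeR adjusted p = 0.000401), 2.96 ± 0.696 for Sprr1b (edgeR adjusted p = 0.0113) and 1.58 ± 0.609 for Sprr1a (edgeR adjusted p = 0.0749, and 0.0212 with the block). Sprr1a passed without DMSO replicate 1 (adjusted p = 0.0352) and without DMSO replicate 2 (adjusted p = 0.00573). Without culture 2 in any group, 1 member was called. As a ratio, the lower step was the larger one for Sprr1a and Sprr1b in each culture, and the upper step for Sprr2d in the 2 cultures with over 3 counts at 1 µM. For Sprr2h the upper step was larger in 1 of 3 cultures, and for Sprr2e in the 1 culture with over 3 counts. The upper step is also the larger one in dose.

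From 1 to 3 µM as a whole, all 7 tested members were called higher, beside 27.8% of all genes. The lowest log2 fold change was 3.82 ± 0.666 (Sprr1a) and the highest 10.34 ± 1.00 (Sprr2i).

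The make-up of the family shifted with dose. The 8 genes summed to 4.92 ± 5.18 CPM in DMSO. With rising dose the sum went to 80.6 ± 17.2, 465.3 ± 110.4 and 2485 ± 382 CPM (SD, n = 3). At 3 µM they held 0.217 ± 0.0244% of the counts of a library. Sprr1a and Sprr1b made up 97.2 ± 1.91% of the family's counts at 1 µM, 93.0 ± 1.05% at 1.5 µM and 71.8 ± 13.6% at 3 µM. The 5 Sprr2 genes rose from 2.76 ± 1.91% to 7.00 ± 1.03% and 28.2 ± 13.6%. In culture 3 they held 43.8% at 3 µM, against 22.2% and 18.5% in cultures 1 and 2. Sprr1a alone went from 70.5 ± 3.63% at 1.5 µM to 39.2 ± 2.89% at 3 µM.

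**Figure D3:**
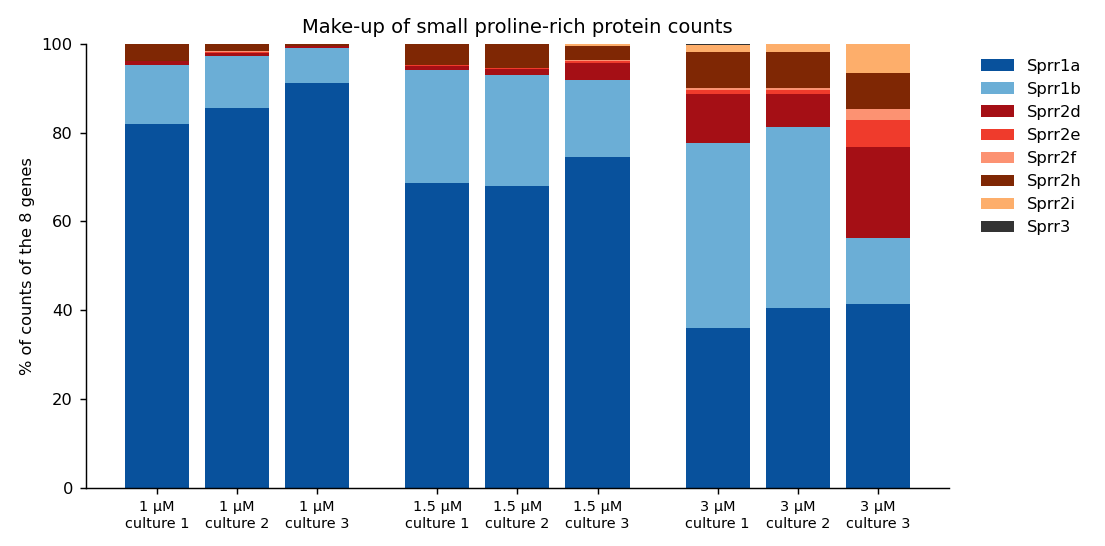
Share of each gene in the summed counts of the 8 genes (percent), 1 bar per library at 1, 1.5 and 3 µM. The blue Sprr1 part shrinks at 3 µM, and culture 3 has the largest Sprr2 part, 43.8%.

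Per kb of exonic length, the 3 µM levels ran in the order Sprr1a (1209 ± 209.0 CPM per kb), Sprr1b (1010 ± 552.5), Sprr2d (448.9 ± 172.7), Sprr2h (268.8 ± 45.0), Sprr2i (123.4 ± 90.2), Sprr2e (93.7 ± 89.997), Sprr2f (40.3 ± 45.1) and Sprr3 (1.77 ± 1.41). These errors are SD over 3 libraries. The ranges of mean ± SD overlapped for all neighbours in this order but Sprr2h and Sprr2i, which leaves out that the genes share libraries. In each culture Sprr2i stood above Sprr2e, Sprr2e above Sprr2f and Sprr2f above Sprr3. The order was reversed for Sprr1a and Sprr1b in culture 1 and for Sprr2d and Sprr2h in culture 2. In culture 3 it was reversed for Sprr1b and Sprr2d and, narrowly, for Sprr2h and Sprr2i (226.7 and 227.3 CPM per kb).

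The 3 cultures did not share one pattern. With treatment group in the model, a test of any difference between cultures called Sprr1b, Sprr2f and Sprr2i, 3 of the 7 tested members, beside 28.8% of all genes. This count is near the share over all genes and is not read as particular to the family. The direction differed by member. Over all treatments Sprr1b was lower in culture 3 than in culture 1 by a log2 fold change of −1.57 ± 0.287 (edgeR adjusted p = 0.00440). Sprr2f was higher in culture 3 than in culture 1 by 2.90 ± 0.505 (edgeR adjusted p = 0.00624) and Sprr2i by 1.80 ± 0.299 (edgeR adjusted p = 0.00519). These were the 3 members called there, where 28.6% of all genes were. Sprr2f and Sprr2i had no count in DMSO and at most 2 counts in a library at 1 µM. Their differences between cultures thus rest on the libraries at 1.5 and 3 µM. Between cultures 3 and 2, where 17.6% of all genes were called, Sprr1b, Sprr2f and Sprr2i passed again, with log2 fold changes of −1.40, 2.14 and 1.47. Of the 12 fits that leave out 1 library, the call against culture 2 was lost in 6 for Sprr2f, in 4 for Sprr2i and in 2 for Sprr1b. Without replicate 2 at 3 µM the adjusted p was 0.507, 0.219 and 0.0586, and without replicate 3 at 3 µM it was 0.257 for Sprr2f and 0.116 for Sprr2i. The call against culture 1 was lost for Sprr2f without replicate 3 at 3 µM (adjusted p = 0.121), and for Sprr2i without replicate 1 or without replicate 3 there (adjusted p = 0.0747 and 0.0598). None of the 7 was called between cultures 2 and 1, where 8.24% of all genes were.

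**Figure D4:**
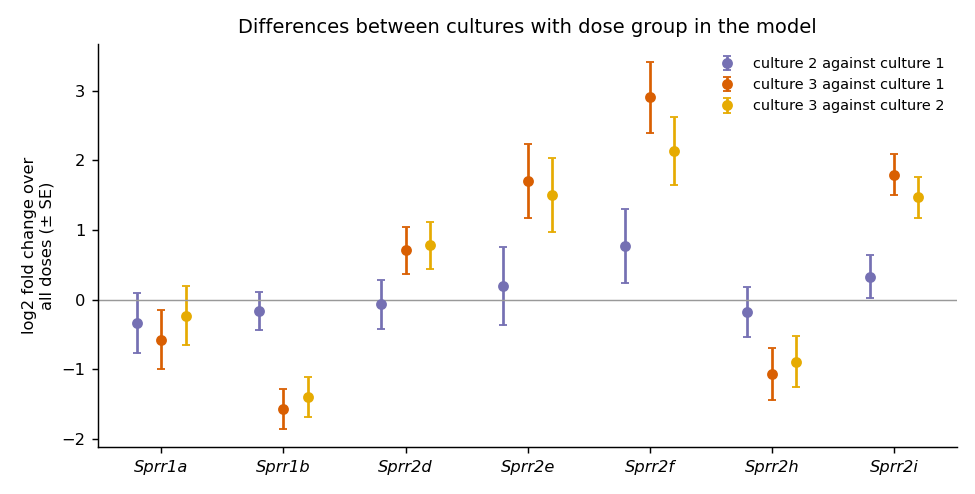
Log2 fold change between cultures over all 4 treatments (± SE, edgeR with treatment group in the model) for the 7 tested genes. In both contrasts with culture 3, Sprr2d, Sprr2e, Sprr2f and Sprr2i lie above 0 and Sprr1a, Sprr1b and Sprr2h below it. Sprr2d, Sprr2e, Sprr2f and Sprr2i had no count in DMSO.

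At 3 µM, Sprr1b stood at 1015 and 1183 CPM in cultures 1 and 2 and at 318.0 CPM in culture 3. Sprr2f stood at 7.45 and 10.01 CPM against 56.2 CPM, Sprr2e at 26.9 and 27.1 against 127.9, and Sprr2i at 40.1 and 48.0 against 140.2. Culture 3 thus had 6.44, 4.73 and 3.18 times the mean of the other cultures for Sprr2f, Sprr2e and Sprr2i, 1.83 times for Sprr2d, 0.782 times for Sprr2h and 0.289 times for Sprr1b. Sprr1a differed less, with a ratio of 0.862. With the 6 libraries at 1.5 and 3 µM only, an alternative chosen after seeing the data, Sprr1b (edgeR adjusted p = 0.0452) and Sprr2i (edgeR adjusted p = 0.0142) passed and Sprr2f did not (edgeR adjusted p = 0.0557). Without replicate 3 at 3 µM, Sprr2f (adjusted p = 0.206) and Sprr2i (adjusted p = 0.114) no longer passed. DESeq2's likelihood ratio test called Sprr1b alone, 1 of 8 members, where 5467 of 16412 genes were called. Without replicate 3 at 1 µM, 5 members were called by edgeR. The share of all genes called is not given for that fit or for the 6 libraries, so neither is read as particular to the family.

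Summed markers of some cell types also set culture 3 apart. At 3 µM the fibroblast markers summed to 4569 CPM in culture 3 and to 175.3 and 971.6 CPM in cultures 1 and 2. The suprabasal markers Krt1, Krt10, Ivl and Krtdap summed to 1206 CPM in culture 3 against 16987 and 12950 CPM. Over the 3 cultures Krtdap averaged 1137 ± 329.3 CPM and Ivl 55.0 ± 29.3 CPM (SD, n = 3). The gap in this sum thus lay mainly in Krt1 and Krt10 and is not read as one of squamous genes in general. Basal or myoepithelial markers summed to 14459 CPM against 28420 and 31316 CPM, though of these 7 genes 3 were called higher and 4 lower at 3 µM than in DMSO. Adipocyte markers went against the fibroblast markers, at 1.73 CPM in culture 3 against 17.0 and 34.3 CPM. Luminal markers differed little, at 1880 CPM against 1883 and 1817 CPM. The part of these markers in the culture differences was not tested.

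The slope over dose was tested for a difference between cultures, and 0 of the 7 members passed in edgeR, beside 0% of all genes. None had an unadjusted p under 0.05, against 1230 of all genes, and DESeq2 called 0 of the members and 224 of all genes. A difference in slope was not detected for these genes.

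The other 7 rows named Sprr are Sprr2a1, Sprr2a3, Sprr2b, Sprr2g, Sprr2j-ps, Sprr2k and Sprr4, and 6 of them passed the filter. At 3 µM all 6 were called above DMSO, beside 29.9% of all genes. Sprr2g shared the pattern of Sprr2e, at 31.5, 32.7 and 110.6 CPM in cultures 1, 2 and 3, and Sprr2a3 went the other way, at 70.5, 56.4 and 13.6 CPM. Sprr4, at the end of the cluster next to Sprr1a, was the exception in dose. It stood at 21.3, 21.5 and 17.5 CPM at 1.5 µM and at 7.92, 7.89 and 1.93 CPM at 3 µM, so it was lower at the top dose in all 3 cultures. The log2 fold change was −1.76 ± 0.652, which missed the threshold (edgeR adjusted p = 0.0658) and passed it with the block (adjusted p = 0.00856).

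**Figure D5:**
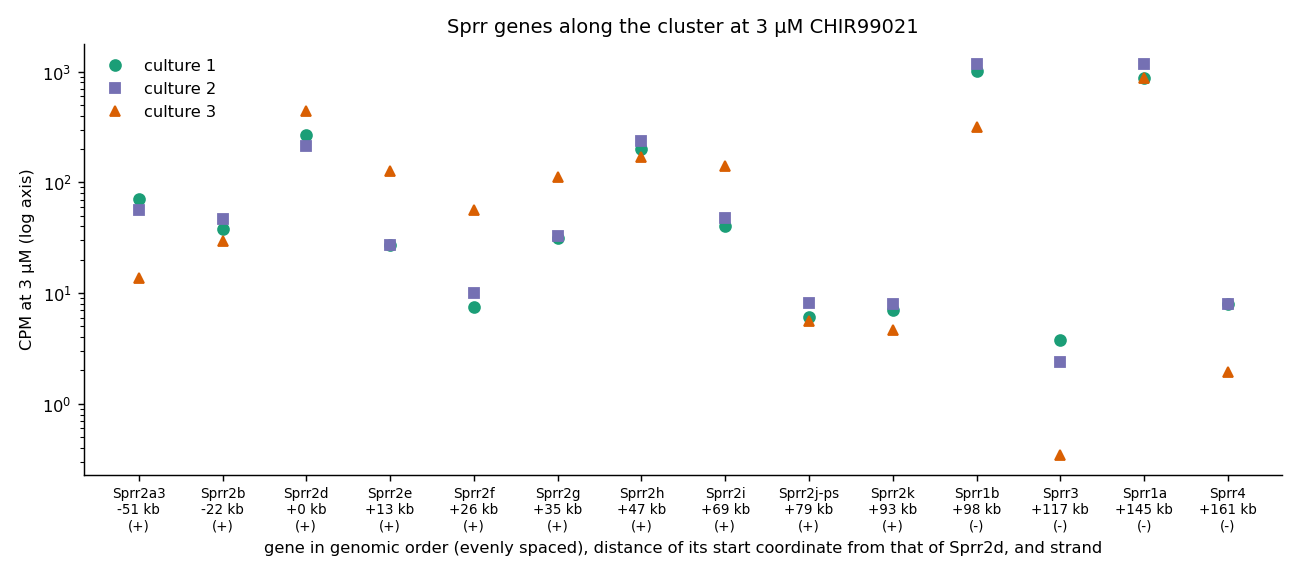
CPM at 3 µM (log axis) of 14 Sprr genes in genomic order (evenly spaced, with the distance of the start coordinate from that of Sprr2d in kb and the strand), 1 point per culture. Culture 3 is the highest from Sprr2d to Sprr2g and at Sprr2i, second at Sprr1a, and the lowest at the other genes.

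Reads that fit several Sprr2 genes can be split or lost in counting, and how such reads were handled is not given in the sources used here. Of all 50-base words in a transcript, 12.5% in Sprr2i, 10.2% in Sprr2e, 4.27% in Sprr2d and 0.714% in Sprr2f also occur in another Sprr transcript of GENCODE M21. The share was 0 in Sprr1a, Sprr1b, Sprr2h and Sprr3. In Sprr2a1, which had at most 4 counts in any library, it was 96.3%.

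Genes of the cornified envelope that act with the Sprr proteins were followed over the same doses. Of 25 tested partners, edgeR called 5 higher at 1 µM, and 24 each at 1.5 and 3 µM, beside 0.189%, 15.4% and 29.9% of all genes. With the block 17, 24 and 25 were called, for which the share of all genes is not given here. The median log2 fold change was 3.23, 5.92 and 7.65, against 0.00, 0.00 and −0.03 over all genes. From 1.5 to 3 µM 12 of the 25 were called higher (with the block 21 higher and Flg2 lower), beside 17% of all genes. Flg2, a filaggrin relative, stood at 16.1 CPM at 1.5 µM and 3.98 CPM at 3 µM, a step of −2.02 ± 0.895 in log2 (edgeR adjusted p = 0.125, and 0.00355 with the block). Tgm1 and Tgm3, the transglutaminases that cross-link Sprr proteins, were higher at 3 µM by 4.29 ± 0.333 (edgeR adjusted p = 6.66e-06) and 10.84 ± 1.63 (edgeR adjusted p = 0.000332). Lor, the loricrin gene, was higher by 10.68 ± 1.999 (edgeR adjusted p = 0.00126) and Ivl, the involucrin gene, by 7.34 ± 1.08 (edgeR adjusted p = 0.000290). Tgm5 was the 1 partner not called at 3 µM (edgeR adjusted p = 0.136, and 0.00167 with the block).

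Of 22 transcription factors listed as candidates to act on Sprr promoters, 21 were tested, all but Pou2f1. Of the 21, 0 were called higher at 1 µM, 8 at 1.5 µM and 15 at 3 µM, beside 0.189%, 15.4% and 29.9% of all genes. The count of 0 is edgeR's, with 4 genes at an unadjusted p under 0.05, and the block gave 4 and DESeq2 1, without a share of all genes for either. With the block 12 were called higher at 1.5 µM and 1, Elf3, lower, and 16 higher at 3 µM. At 3 µM the median log2 fold change was 1.33, against −0.03 over all genes. Grhl3, a grainyhead factor of the epidermal barrier, was higher by 5.41 ± 0.326 (edgeR adjusted p = 1.87e-06) and Klf4, a Krüppel-like factor of the same barrier, by 3.99 ± 0.299 (edgeR adjusted p = 5.56e-06). Of the 7 AP-1 subunits in the list 4 were called higher at 3 µM, Fosl1 by 2.36 ± 0.448 (edgeR adjusted p = 0.00134), Junb by 1.51 ± 0.277 (adjusted p = 0.00110), Jun by 1.05 ± 0.195 (adjusted p = 0.00116) and Fosl2 by 0.97 ± 0.175 (adjusted p = 0.000936). Fosb (0.05 ± 0.593), Jund (−0.07 ± 0.268) and Fos (1.33 ± 0.811, edgeR adjusted p = 0.184) were not called, and Fos was called with the block (adjusted p = 1.42e-05). Pou2f3, a POU-domain factor that binds octamers, stood at 0.442 CPM in DMSO, 6.50 CPM at 1.5 µM and 6.77 CPM at 3 µM (log2 fold change at 3 µM 3.81 ± 0.826, edgeR adjusted p = 0.00296).

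The genes whose log2 CPM over the 12 libraries were most like the mean of Sprr1a and Sprr1b, among 12425 genes with at least 50 counts per library on average, were Asprv1 (Pearson r = 0.997), Dsg1b (0.997) and Krtdap (0.994). For the mean of the Sprr2 members they were Uox (0.996), Pvrl1 (0.992) and Hbs1l (0.991), and for Sprr3 Nf2 (0.986), Krt84 (0.985) and Lancl1 (0.983). Sprr3 did not pass the filter on low counts. It had no count in DMSO and at 1 µM and at most 2 in a library at 1.5 µM, so its r values rest mainly on the 3 µM libraries. All r values are a description, and libraries of a group and of a culture are not independent points.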

How the data were processed

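Polyadenylated RNA was sequenced from 12 libraries in 4 groups (stranded kit, per the labels' protocols). The authors deposited raw read counts per Ensembl gene and log2 values of the counts scaled to a fixed total, and the tests used the counts. TopHat2 2.1, Bowtie 1.1.0, HTSeq and DESeq2 are named in the submitters' processing notes with builds GRCm38 and mm10. Strand setting, annotation release and treatment of reads with several matches are not given in the sources used here. Sample columns without a sample numbered 0.

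Genes were filtered with edgeR's filterByExpr (edgeR 4.0.16, R 4.3.3), scaled by TMM and tested with glmQLFit (robust) and glmQLFTest, two-sided, with group means and no culture term. Calls use a Benjamini-Hochberg adjusted p under 0.05 over 15316 genes. Culture tests used group plus culture, and culture by dose for the slope. The scripts were tested on simulated data. Alternatives were DESeq2 1.42.0, other scalings, no filter, thinned libraries, 2 groups only, summed Sprr2 rows, the block and left-out libraries or cultures.

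Culture numbers pair the libraries, since each is an animal, and deviations from group means correlated at 0.177 to 0.840 in all 18 same-culture pairs. Without a culture term, p-values reflect the spread between the 3 animals within a group and treat libraries of the same animal as independent. With the block and in the tests of a difference between cultures, they reflect the scatter left after group and culture. In the slope tests they reflect the scatter around the line of each culture. Intervals from counts cover counting error only. No molecular identifiers are described.

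The members, lists and rules were chosen with earlier results of these data known, and the motifs after the promoters had been seen. Named genes are all Sprr rows, the 3 genes most like each subfamily, and list members given by count. Promoter sequences are RefSeq's, with all 8 members matched by symbol.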

Additional observations from a re-analysis of the deposited data

How the results depend on the processing

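No result reversed under any alternative tried. With the replicate block, the members called went from 0 to 2 at 1 µM against DMSO and from 3 to 6 at 1.5 against 1 µM, and DESeq2 gave 4 and 6 there and 1 in place of 3 for the difference between cultures. The block also added Sprr2f at 1.5 µM against DMSO and Sprr1a at 3 against 1.5 µM, and changed no other count of calls of the members by more than 1.5 times. Summing all Sprr2 rows into 1 leaves 3 genes to test in all, of which 3 were called at 1.5 and at 3 µM against DMSO and at 3 against 1 µM, 2 at 3 against 1.5 µM and 1 between cultures. These counts are lower by construction.

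With 1 library or 1 culture left out, the members called ranged from 0 to 1 at 1 µM against DMSO, from 2 to 6 at 1.5 µM against DMSO, from 0 to 5 at 1.5 against 1 µM, from 1 to 8 at 3 against 1.5 µM (Sprr3 is tested in some of these fits) and from 0 to 5 between cultures. The lowest counts for 1.5 µM against DMSO (2) and for 3 against 1.5 µM (1) came without culture 2. Between cultures, 5 were called without replicate 3 at 1 µM, 1 without culture 1 and 0 without culture 3. Each member called at 3 µM against DMSO kept its call in all 12 fits that leave out 1 library. Depth limits Sprr2e, Sprr2f, Sprr2i and Sprr3 at 1 µM, where each had at most 5 counts in a library.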
